A study of Rattus norvegicus with 24 samples.

Results

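The histamine receptor genes Hrh1, Hrh2 and Hrh3 were followed through mRNA libraries of 2 rat brain regions, the hypothalamic paraventricular nucleus (PVN) and the central amygdala (CEA). They were taken by symbol, 3 of the 35032 genes in the count table, and were chosen by the measured change of Hrh3 in HT against NC and in SEA against HT (groups defined below) in these same libraries. The treatment values of Hrh3 are therefore given as a description, without a test. The differences between the regions played no part in that choice and were tested for all 3 genes.

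Histamine in the brain is made by neurons of the tuberomammillary nucleus in the posterior hypothalamus, which send fibres to most of the forebrain, and also by mast cells. The H1 receptor couples to Gq and phospholipase C and excites neurons, the H2 receptor couples to Gs and adenylyl cyclase, and the H3 receptor couples to Gi and Go. The H3 receptor sits on histaminergic terminals, where it limits histamine synthesis and release, and on the terminals and dendrites of many other neurons, with a well-known abundance in the striatum.

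The libraries came from young male Sprague-Dawley rats, an outbred strain, and fell into 8 groups of 3, formed by 2 regions and 4 treatments. Normal control rats (NC) had no operation. The other groups all had part of the left liver lobe removed under isoflurane, with nothing further (HT), with electroacupuncture at the Zusanli and Sanyinjiao points before and after the operation (EA), or with needles at the same points and no current (SEA). Rats of every group, NC and HT included, were held in the restraint device while awake, so restraint is common to all comparisons, and no group was needled without the operation. The study's methods have the brain regions taken a day after the last stimulation, and state that brain samples came from different animals of 1 batch. The number of rats it gives equals the number of libraries of 1 region, so PVN and CEA libraries may share rats, but which ones do is not given. The regional tests treat them as independent. Since the labels do not say that replicates were separate animals, the p-values measure only the spread between these libraries.

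Total counts ran from 13152772 to 18607032 per library. Levels are given as CPM, counts scaled to a common total after TMM, a correction for library composition. Depending on the library, 1 count corresponded to 0.0527 to 0.0788 CPM, and the upper limit for a count of 0, taken as 3 counts, to 0.158 to 0.237 CPM, for counting error only. The hypothalamic markers set the regions apart clearly and the amygdala markers less so. Summed CPM of 9 neuroendocrine hypothalamus genes was 2833 to 3544 in PVN libraries and 614 to 1142 in CEA libraries (464 to 1387 and 44.1 to 191 without Peg3), and 7 measured central amygdala genes summed to 663 to 901 in PVN and 1086 to 1802 in CEA libraries. Penk (median 169 CPM in the PVN and 735 in the CEA) and Prkcd (93.8 and 253) carried that sum. Prkcd, which is also on the list of thalamus markers, ranged from 20.1 to 552 CPM in CEA libraries. Dlk1 (114 and 12.9), Sst (243 and 167), Zfhx3 (58.4 and 33.2) and Nts (27.4 and 12.6) had lower medians in the CEA, against the label. Choroid plexus genes stood apart in CEA NC replicate 2 (1090 CPM), CEA SEA replicate 2 (1837 CPM) and CEA EA replicate 1 (388 CPM). Cortex and hippocampus genes also varied widely between CEA libraries, at 13.5 to 449 CPM beside 46.0 to 88.5 in the PVN. Thalamus genes summed to 66.2 to 1099 CPM in CEA and 532 to 926 in PVN libraries.

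All 3 receptors were detected in all 24 libraries, and each passed the low-count filter in all 15 comparisons. Hrh3 (ENSRNOG00000061153, chromosome 3, 175473078 to 175479395, minus strand) had 1223 to 5549 counts. Hrh1 (ENSRNOG00000007420, chromosome 4, 146455332 to 146457074, plus strand) had 57 to 177 counts, and Hrh2 (ENSRNOG00000018260, chromosome 17, 10921507 to 10952441, minus strand) had 18 to 96 counts. Each is a protein-coding gene that no other gene of the table overlaps, and the coordinates are those of the table, which names no build. The depth behind Hrh2 was thus the lowest of the 3 and that behind Hrh3 by far the highest. The fourth receptor gene, Hrh4, a receptor of blood cells, had 1 count in PVN NC replicate 3 and 0 in the other 23 libraries.

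The stretches upstream of the RefSeq start sites of Hrh3 and Hrh1 are shown because these receptors were ordered in opposite ways between the regions. Each line holds the 250 bases before the start in the assembly GRCr8, 5′ to 3′ on the gene's own strand, at chr3:187574260-187574509 (minus strand) and chr4:149120261-149120510 (plus strand). Capitals mark GC boxes, the letters GGGCGG searched on both strands.
Hrh3: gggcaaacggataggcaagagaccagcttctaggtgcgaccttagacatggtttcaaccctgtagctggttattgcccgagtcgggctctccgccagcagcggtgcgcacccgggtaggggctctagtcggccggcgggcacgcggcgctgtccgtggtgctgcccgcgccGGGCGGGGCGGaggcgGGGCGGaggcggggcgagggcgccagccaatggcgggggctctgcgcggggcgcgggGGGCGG
Hrh1: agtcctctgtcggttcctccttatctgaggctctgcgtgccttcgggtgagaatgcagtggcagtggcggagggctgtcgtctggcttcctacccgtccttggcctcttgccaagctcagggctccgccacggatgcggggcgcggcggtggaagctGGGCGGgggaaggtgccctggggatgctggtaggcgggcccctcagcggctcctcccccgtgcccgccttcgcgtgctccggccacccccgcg
Both stretches were rich in G and C, at 73.6% for Hrh3 and 70.4% for Hrh1. Hrh3 had 31 CpG dinucleotides and 4 GC boxes, of which 2 overlap, and 3.67% of 33469 RefSeq promoters of this length hold as many. Hrh1 had 22 CpG dinucleotides and 1 GC box, and 30.5% of promoters hold at least 1. Neither stretch held a TATA box (TATAAA, in 12.9% of promoters) or a cAMP response element (TGACGTCA, in 1.59%). These matches describe letters only, and transcripts of Hrh3 that start elsewhere were not examined.

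To compare the receptors with each other, levels were divided by the counted gene length. In the PVN the mean level per kb was 32.3 ± 7.11 CPM per kb for Hrh3, 4.45 ± 0.620 for Hrh1 and 2.05 ± 0.612 for Hrh2 (SD, n = 12). In the CEA it was 74.1 ± 16.4 for Hrh3, 2.52 ± 0.342 for Hrh1 and 1.92 ± 0.523 for Hrh2. Hrh3 mRNA was thus the most abundant receptor mRNA per length in every library. The level of Hrh3 per kb was 4.47 to 10.9 times that of Hrh1 in PVN libraries (median 7.24) and 18.4 to 50.2 times in CEA libraries (median 27.5), ranges that did not overlap. Hrh1 over Hrh2 per kb was 1.40 to 5.61 in the PVN (median 2.16) and 0.986 to 3.40 in the CEA (median 1.31), which overlapped. Among genes with a mean of at least 1 CPM in the region, the level per kb of Hrh3 lay above 82.3% of 15708 genes in the PVN and above 92.5% of 15587 in the CEA. Hrh1 lay above 32.9% and 21.5%, and Hrh2 above 18.0% and 17.01%.

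**Figure D1:**
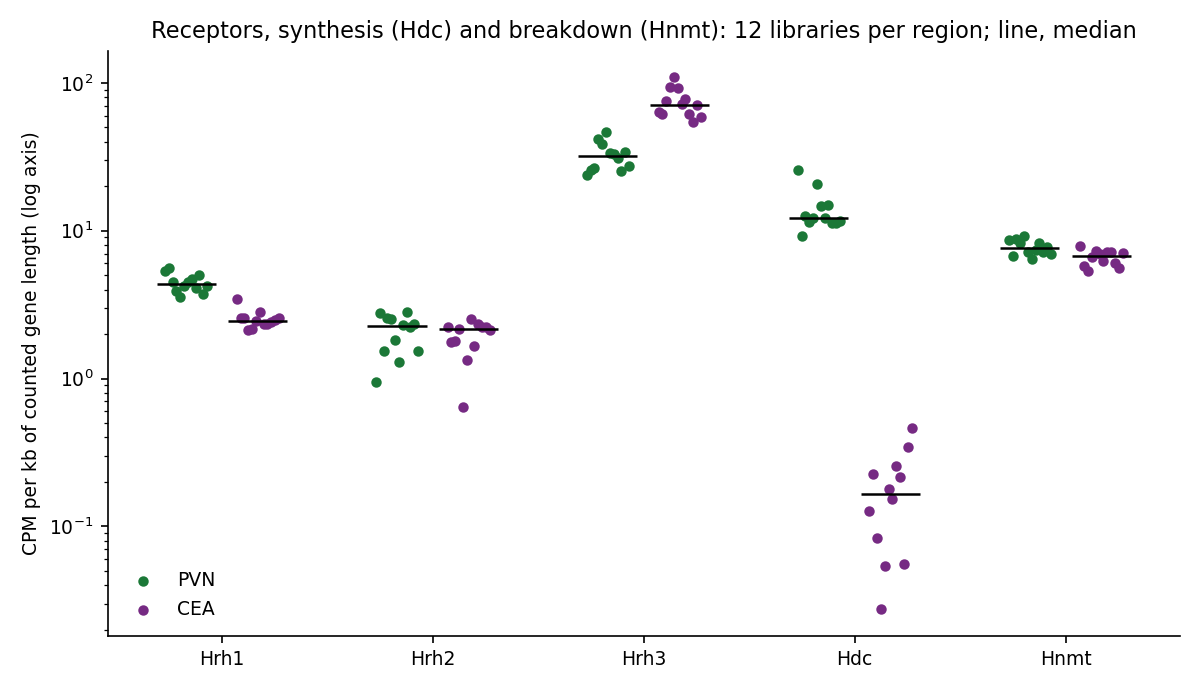
Levels per kb of counted gene length on a log axis for the 3 receptors, the synthesizing enzyme Hdc and the degrading enzyme Hnmt; each point is a library (12 per region) and the line is the median. Hrh3 is the highest of the receptors in both regions, and Hdc is at 9.22 to 25.6 CPM per kb in the PVN and at 0.0276 to 0.466 in the CEA.

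The first comparison asked how the regions differ. It was made in NC, HT, EA and SEA separately, and these 4 comparisons share no library. Hrh3 was higher and Hrh1 lower in the CEA in each of them, whereas Hrh2 passed the test in none.

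Hrh3 in NC was 77.4, 84.4 and 86.6 CPM in the PVN and 207, 201 and 247 CPM in the CEA (replicates 1, 2 and 3). In HT it was 137, 126 and 151 CPM in the PVN against 304, 355 and 299 CPM in the CEA. Every CEA library lay above every PVN library, across the treatments as well as within them, the lowest CEA library at 178 CPM and the highest PVN library at 151 CPM. The share of tested genes that were higher in the CEA without overlap was 21.5% for NC, 19.5% for HT, 20.4% for EA and 22% for SEA. In EA the values were 110, 108 and 102 CPM against 233, 255 and 202 CPM, and in SEA 82.3, 110 and 89.4 CPM against 178, 231 and 192 CPM. Hrh3 was 2.63-fold higher in the CEA in NC (log2 1.40 ± 0.12 SE, edgeR adjusted p = 0.000623), and 26.4% of 16748 genes were called in that comparison in either direction, 12.7% higher in the CEA. The fold was 2.40 in HT (log2 1.26 ± 0.13, adjusted p = 0.00101, 21.3% of genes called), 2.20 in EA (1.14 ± 0.11, adjusted p = 0.000218, 27.8% called) and 2.16 in SEA (1.11 ± 0.14, adjusted p = 0.00194, 30.5% called). The share called higher in the CEA was 11.1% in HT, 14.1% in EA and 15.1% in SEA. Hrh3 was 1 of 1031 genes called higher in the CEA in all 4 comparisons, 6.38% of the 16166 genes tested in all of them.

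Hrh1 in NC was 9.24, 9.71 and 7.85 CPM in the PVN and 6.0, 4.44 and 4.44 CPM in the CEA. In HT it was 6.77, 6.17 and 7.40 CPM in the PVN and 3.72, 3.78 and 4.27 CPM in the CEA. Here too the regions did not overlap over all 24 libraries, in the order opposite to Hrh3, with the lowest PVN library at 6.17 CPM and the highest CEA library at 6.0 CPM. Genes lower in the CEA without overlap made up 23.8% for NC, 24.1% for HT, 24.4% for EA and 26% for SEA. In EA the values were 7.81, 8.22 and 7.13 CPM against 4.90, 4.08 and 4.08 CPM, and in SEA 8.75, 6.54 and 7.39 CPM against 4.22, 4.33 and 4.49 CPM. Hrh1 was 1.80-fold higher in the PVN in NC (log2 CEA over PVN -0.85 ± 0.20 SE, edgeR adjusted p = 0.0204, 13.7% of genes called lower in the CEA), 1.67-fold in HT (-0.74 ± 0.20, adjusted p = 0.0380, 10.2%), 1.74-fold in EA (-0.80 ± 0.17, adjusted p = 0.0109, 13.8%) and 1.71-fold in SEA (-0.77 ± 0.17, adjusted p = 0.0131, 15.4%). Genes called lower in the CEA in all 4 comparisons numbered 914, or 5.65%. These calls lay nearer the threshold than those of Hrh3. In NC the adjusted p was 0.0646 without PVN NC replicate 1, 0.0725 without CEA NC replicate 2 and 0.0815 without CEA NC replicate 3. In HT, 5 of the 6 omissions of a library left it above the threshold, at 0.141, 0.101 and 0.140 without PVN HT replicates 1, 2 and 3 and 0.0599 and 0.0617 without CEA HT replicates 1 and 3. It was 0.0505 without PVN EA replicate 2 in EA and 0.0578 without PVN SEA replicate 1 in SEA.

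Hrh2 was the receptor with the widest spread between replicates, with a pooled SD of 0.51 on the log2 CPM scale beside 0.16 for Hrh1 and 0.15 for Hrh3. In NC it was 1.71, 4.99 and 2.77 CPM in the PVN and 4.02, 3.20 and 3.25 CPM in the CEA, and in HT 4.61, 4.56 and 3.28 CPM against 3.92, 1.15 and 2.40 CPM. In EA it was 2.35, 4.17 and 5.11 CPM against 4.54, 3.01 and 4.26 CPM, and in SEA 4.02, 4.21 and 2.79 CPM against 4.02, 4.02 and 3.86 CPM. The groups overlapped in each of the 4 comparisons. The log2 difference of CEA over PVN was 0.14 in NC (95% interval -0.77 to 1.05, edgeR adjusted p = 0.819), -0.69 in HT (-1.68 to 0.31, adjusted p = 0.292), 0.04 in EA (-0.68 to 0.76, adjusted p = 0.934) and 0.14 in SEA (-0.36 to 0.63, adjusted p = 0.666). The HT interval held the difference found there for Hrh1 (-0.74), and the intervals in NC, EA and SEA did not hold those found there for Hrh1. None of the 4 held the difference of Hrh3. The HT value of Hrh2 was -1.16 without CEA HT replicate 1 and -0.34 without CEA HT replicate 2.

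**Figure D2:**
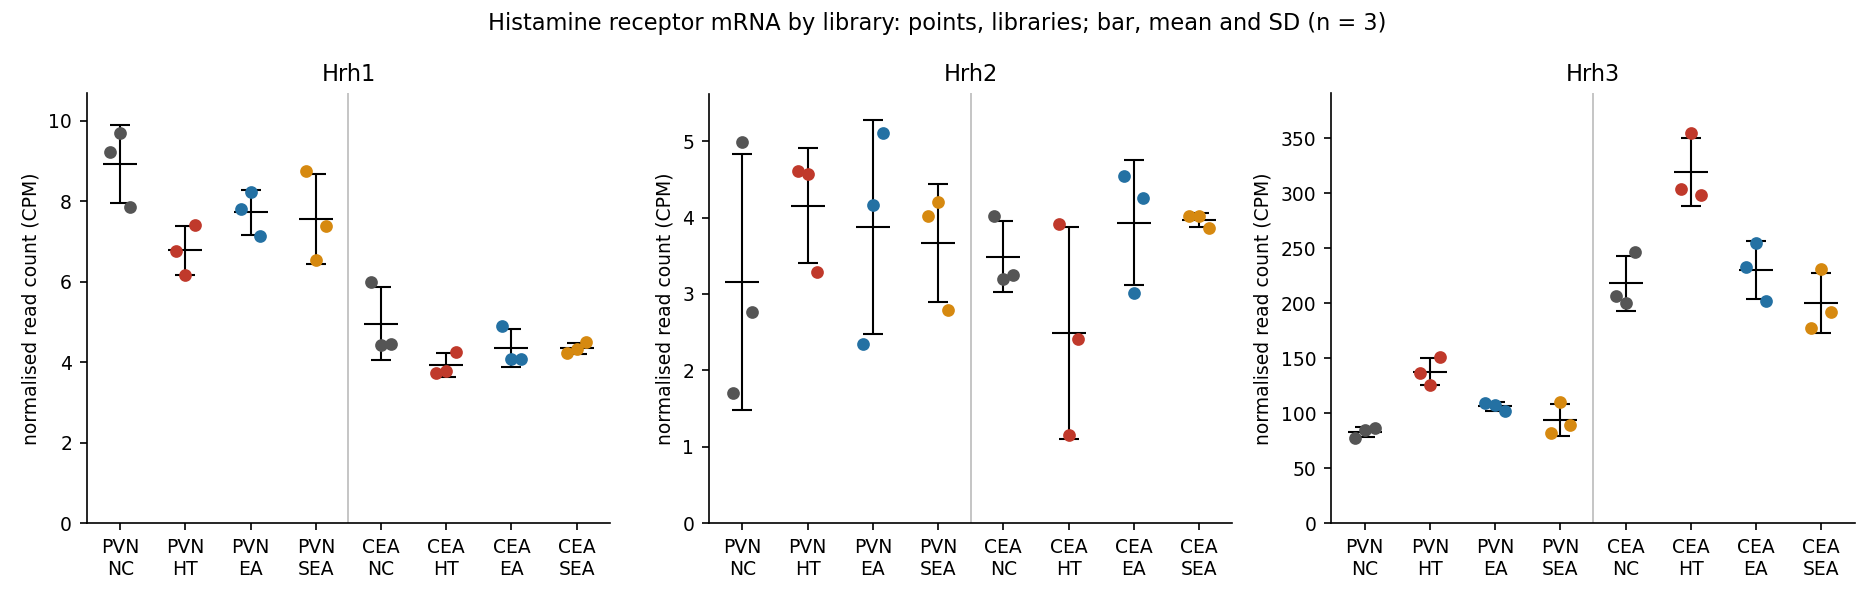
Normalised read counts (CPM) of Hrh1, Hrh2 and Hrh3 in the 8 groups; points are libraries in the order of replicates 1 to 3, and the bars show the mean and SD (n = 3). CEA points lie above all PVN points for Hrh3, below all of them for Hrh1, and for Hrh2 the 2 regions overlap, with CEA HT replicate 2 the lowest of all.

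The cells that a dissection catches can move such differences, and in tissue samples fewer cells of a type and less RNA per cell cannot be told apart. Striatal projection neurons, which border the CEA and carry the H3 receptor, were followed with 10 marker genes. Their summed level was 207 to 344 CPM in the PVN and 2049 to 6326 CPM in the CEA, so they moved with the regional difference of Hrh3, and 1 of the 10 genes was at 0 in every PVN library. Of the defining markers, Drd1 was at 4.20 to 7.55 CPM in the PVN and 56.1 to 190 CPM in the CEA, Drd2 at 10.3 to 15.6 and 65.7 to 229 CPM, and Adora2a at 5.25 to 7.64 and 142 to 523 CPM. Of the 13 marker lists, 6 did not overlap between the regions. Besides the striatal genes, oligodendrocyte genes (10133 to 16933 CPM in the PVN, 26715 to 44226 in the CEA) and central amygdala genes were higher in the CEA, and neuroendocrine hypothalamus, tuberomammillary and mast cell sums were lower. The mast cell sum was lower through Hdc, and without it the regions overlapped (28.2 to 43.9 CPM in PVN and 25.8 to 47.3 in CEA libraries). Their part in the regional differences of Hrh3 and Hrh1 was not tested. With the replicate number as a block, for the case that same-numbered PVN and CEA libraries share a rat, edgeR called Hrh3 in all 4 regional comparisons (adjusted p = 0.000725 to 0.00649) and Hrh1 in NC, EA and SEA (0.0251 to 0.0340) but not in HT (0.0943). The Hrh3 call held when each library rich in choroid plexus genes was left out, with log2 differences of 1.46 without CEA NC replicate 2, 1.13 without CEA EA replicate 1 and 1.005 without CEA SEA replicate 2.

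**Figure D3:**
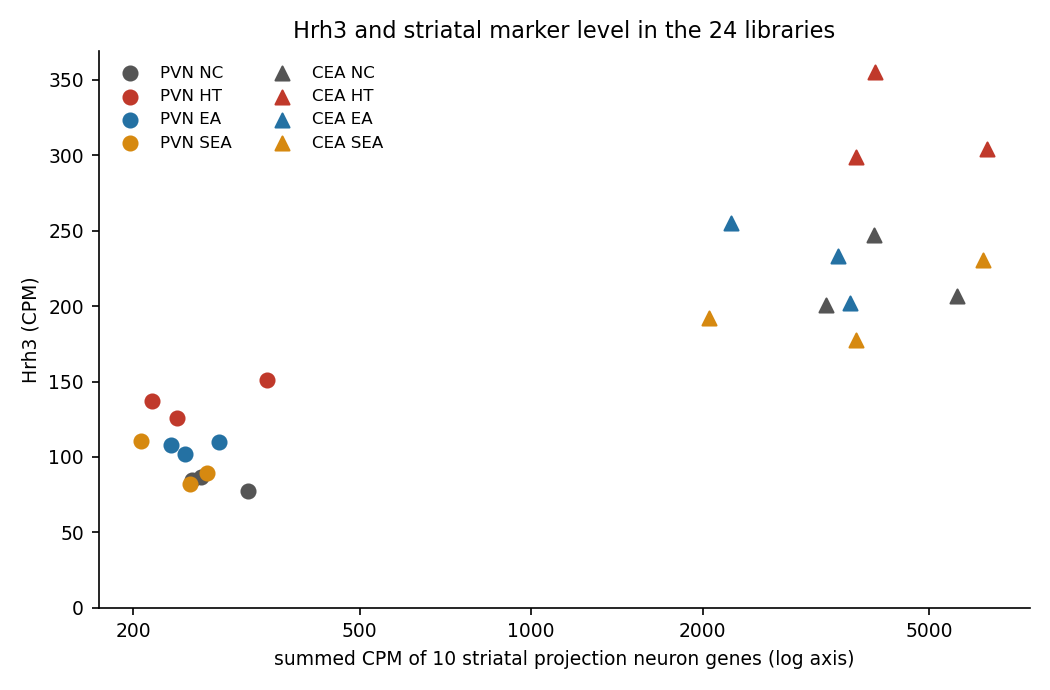
Hrh3 (CPM) against the summed CPM of 10 striatal projection neuron genes on a log axis, 1 point per library, with circles for PVN and triangles for CEA and colours for treatment. The CEA libraries lie to the right and above; within the CEA the HT libraries are the highest in Hrh3, at marker sums of 3715 to 6326 CPM that the NC and SEA libraries partly share.

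Across the 8 groups, mean Hrh3 was highest in CEA HT at 319 ± 31.3 CPM, followed by CEA EA at 230.2 ± 26.5, CEA NC at 218 ± 25.2 and CEA SEA at 200.2 ± 27.6 (SD, n = 3). The PVN groups followed with HT at 138 ± 12.4, EA at 106 ± 4.13, SEA at 94.0 ± 14.6 and NC at 82.8 ± 4.80 CPM. Gaps without overlap lay between CEA HT and CEA EA, between CEA SEA and PVN HT, and between PVN HT and PVN EA; the other neighbours in this order overlapped. In the order for Hrh1, from PVN NC at 8.93 ± 0.964 to CEA HT at 3.92 ± 0.299 CPM, the gap between PVN HT (6.78 ± 0.616) and CEA NC (4.96 ± 0.900) was the one without overlap. For Hrh2 the means ran from 4.15 ± 0.754 CPM in PVN HT to 2.49 ± 1.39 in CEA HT, and all neighbours overlapped. The study left 1 unnamed CEA EA library out of its co-expression network as too different, and all 3 are used here. Without CEA EA replicate 1, 2 or 3, Hrh3 in EA against HT in the CEA was -0.51, -0.57 or -0.40 on the log2 scale.

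Hepatectomy was assessed by setting HT beside NC. Hrh3 in HT lay above NC in both regions without overlap, 1.66-fold in the PVN (log2 0.74 ± 0.10 SE) and 1.49-fold in the CEA (0.57 ± 0.15). These values chose the family and carry no test. Of 13 marker lists, 3 did not overlap between HT and NC in the PVN. The thalamus sum was 755 to 926 CPM in HT and 532 to 747 in NC. It was mostly Slc17a6 (PVN median 335 CPM) and Calb2 (219), whereas Gbx2 (5.51) and Rora (5.08) were low. The ependyma sum was 30.4 to 35.0 and 38.4 to 69.1, and the choroid plexus sum 11.2 to 12.6 and 14.7 to 18.7. That choroid plexus sum was mostly Clic6 (PVN median 5.83 CPM), Folr1 (3.18) and Kl (2.80). Ttr had a PVN median of 0.875 CPM and Otx2 of 0. In the CEA 2 lists did not overlap, microglia (435 to 502 and 307 to 408) and astrocytes (2802 to 2881 and 3026 to 3792). Some lists overlapped there through a wide spread within groups. Cortex and hippocampus genes were 13.5 to 449 CPM in HT and 52.2 to 426 in NC, and thalamus genes 66.2 to 913 and 205 to 998. The part of any of these lists in the change of Hrh3 was not tested. In PVN tissue 8.88% of 16727 genes, and in the CEA 4.74% of 16413 genes, were higher in HT without overlap. Leaving out PVN NC replicate 2, a library on which the count of genes called in the PVN turns, left the log2 change of Hrh3 at 0.75.

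Hrh1 had the opposite sign and was lower in each HT library than in each NC library of the same region, though not past the test. Its log2 change was -0.40 ± 0.16 SE in the PVN (edgeR adjusted p = 0.418) and -0.31 ± 0.24 in the CEA (adjusted p = 0.918). Without CEA NC replicate 1 the CEA value of Hrh1 was -0.16. Genes lower in HT without overlap made up 8.23% in the PVN and 5.69% in the CEA. Hrh2 overlapped between HT and NC, with 0.39 in the PVN (95% interval -0.51 to 1.28, adjusted p = 0.628) and -0.46 in the CEA (-1.46 to 0.54, adjusted p = 0.918). A single library moved these values. Dropping PVN NC replicate 1 gave 0.09 in the PVN, and leaving out replicate 2 of that group gave 0.88. Leaving out CEA HT replicate 1 gave -0.95 in the CEA, and leaving out replicate 2 of that group gave -0.12. With edgeR, 2 of 16727 genes in the PVN (0.012%) passed the adjusted threshold of 0.05, and 1847 passed it unadjusted. Without PVN NC replicate 2 the adjusted count was 3418, and it was 0 to 2 when any other of these libraries was left out. The CEA counts were 0 of 16413 adjusted and 616 unadjusted, while DESeq2 called 28 and 24.

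Electroacupuncture and sham needling were each read against HT, so both comparisons share the HT libraries with that of HT against NC, and a high HT group by itself gives opposite signs. In the PVN, Hrh3 in EA lay below HT without overlap (log2 -0.37 ± 0.07 SE) and, at 102 to 110 CPM, above the 77.4 to 86.6 CPM of NC, as 7.32% of genes did without overlap. SEA lay below HT without overlap (-0.55 ± 0.11) and overlapped NC. In the CEA, EA and SEA lay below HT without overlap (-0.49 ± 0.16 and -0.71 ± 0.16) and both overlapped NC. Marker lists moved beside these values as well. In the CEA the summed central amygdala genes were 1308 to 1802 CPM in HT, and lower without overlap in EA (1098 to 1205) and SEA (1086 to 1288). Penk and Prkcd carried that amygdala sum, as given above. The neuroendocrine hypothalamus genes were 614 to 747 CPM in HT, and higher without overlap in EA (944 to 1022) and SEA (805 to 1142). That sum was mostly Peg3, an imprinted gene of wide expression (median 730 CPM in the CEA), and the other 8 genes overlapped, at 44.4 to 181 CPM in HT, 128 to 171 in EA and 74.2 to 191 in SEA. Striatal genes were 3715 to 6326 CPM in HT, lower without overlap in EA (2243 to 3634) and overlapping in SEA (2049 to 6221). In the PVN the neuroendocrine hypothalamus genes were 2833 to 3286 CPM in HT, and higher without overlap in EA (3397 to 3544) and SEA (3350 to 3543), as were choroid plexus genes (11.2 to 12.6 CPM in HT, 15.9 to 17.3 in EA, 13.6 to 15.7 in SEA) and, in SEA, ependymal genes (30.4 to 35.0 against 36.4 to 43.1). Without Peg3 (median 2288 CPM in the PVN) the hypothalamic sum was 464 to 991 CPM in HT, 937 to 1160 in EA and 948 to 1203 in SEA, which overlapped. The choroid plexus sum in the PVN was mostly Clic6, Folr1 and Kl, as given above. The part of these shifts in the Hrh3 values was not tested. Genes lower without overlap made up 5.85% for EA and 4.75% for SEA in the PVN, while the CEA had 4.02% and 3.87%. EA and SEA, which share no library and differ by the current, overlapped for Hrh3 in both regions, with a log2 difference of EA over SEA of 0.18 ± 0.10 SE in the PVN and 0.22 ± 0.14 in the CEA, also given without a test.

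Hrh1 and Hrh2 overlapped between the groups in all of these comparisons. For Hrh1 the log2 change was 0.19 in EA and 0.16 in SEA against HT in the PVN (edgeR adjusted p = 0.947 and 0.981), and 0.14 and 0.11 in the CEA (adjusted p = 0.953 and 0.971). For Hrh2 it was -0.09 and -0.18 in the PVN (adjusted p = 0.995 and 0.981) and 0.64 and 0.63 in the CEA (adjusted p = 0.930 and 0.959), where CEA HT replicate 2, at 1.15 CPM or 18 counts, was the lowest of all 24 libraries. The 95% intervals of these CEA values were wide, -0.37 to 1.66 for EA and -0.35 to 1.62 for SEA. With CEA HT replicate 2 left out the values were 0.31 and 0.29, and with CEA HT replicate 1 left out they were 1.13 and 1.12. In EA against SEA the log2 difference was 0.03 for Hrh1 and 0.09 for Hrh2 in the PVN (adjusted p = 0.989 and 0.987), and 0.02 and 0.01 in the CEA (both adjusted p = 0.9999).

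The genes called by edgeR numbered 16 for EA against HT in the PVN (0.0961%) and 0 in the other 5 of these comparisons. Unadjusted, 944, 728 and 865 PVN genes fell under 0.05 (EA against HT, SEA against HT, EA against SEA), beside 526, 503 and 324 CEA genes. DESeq2 called 91, 21 and 24 genes for the PVN, beside 5, 3 and 5 for the CEA. No interaction of region with HT, EA or SEA was called for any gene (2103, 782 and 437 genes under 0.05 unadjusted, and 1, 49 and 1 by DESeq2). Leaving out PVN NC replicate 2 gave 693 genes called for the HT interaction. For Hrh1 the interaction was 0.06, -0.06 and -0.05 on the log2 scale, and for Hrh2 it was -0.87, 0.73 and 0.81 (edgeR adjusted p = 0.527, 0.945 and 0.9999).

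**Figure D4:**
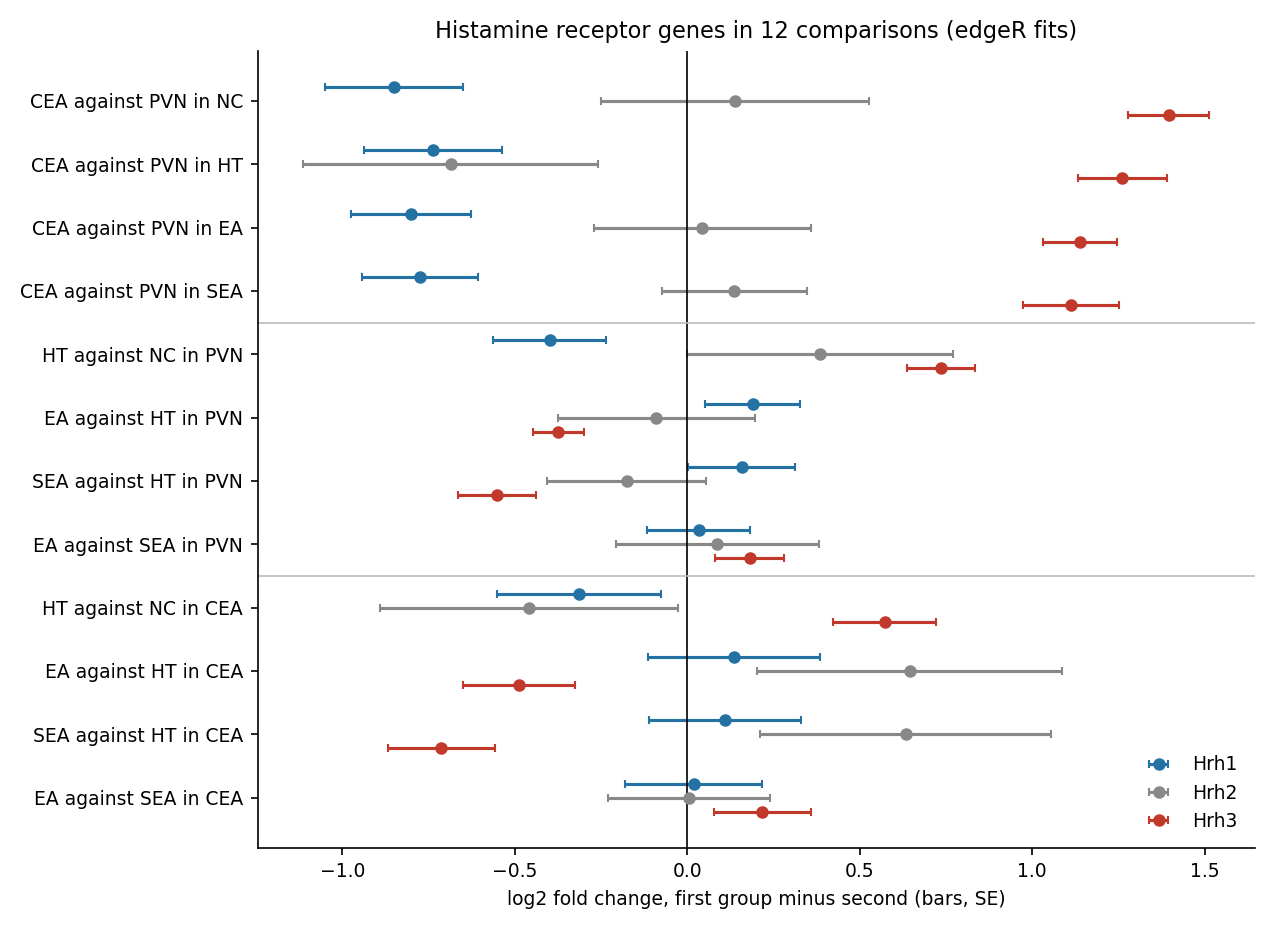
Log2 fold changes of Hrh1, Hrh2 and Hrh3 in the 4 comparisons of regions and the 8 comparisons of treatments, first group minus second, with bars for the SE. The regional differences of Hrh3 (1.11 to 1.40) and Hrh1 (-0.85 to -0.74) stand clear of 0, while the bars of Hrh2 cross or come near it.

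Genes of histamine synthesis, storage and breakdown were then set beside the receptors. Fibres of tuberomammillary neurons reach most of the forebrain, so Hdc mRNA in a region does not measure the histamine there. Hdc, histidine decarboxylase, which makes histamine, was at 21.8 to 60.7 CPM in the PVN and at 0.0653 to 1.104 CPM (1 to 14 counts) in the CEA. Its CEA over PVN log2 difference ran from -7.27 to -5.30 over the 4 treatments (edgeR adjusted p = 3.48e-06 to 0.000645). Slc18a2, the vesicular monoamine transporter, was lower in the CEA by 1.98 to 2.29 on the log2 scale in each, and Maob, which oxidizes methylhistamine, by 0.75 to 0.99. Hnmt, which methylates histamine and ends its action in the brain, was measured at 10.5 to 15.1 CPM in the PVN and 8.69 to 12.8 CPM in the CEA and was called in none of the 4 (-0.35 to -0.08, adjusted p = 0.238 to 0.734). The 6 markers of tuberomammillary neurons, Hdc among them, summed to 180 to 275 CPM in the PVN and 66.3 to 103 CPM in the CEA. Maob carried most of that sum, with a median of 124 CPM in the PVN and 65.7 in the CEA, where Hdc had a median of 0.390. The 8 mast cell genes summed to 54.0 to 92.6 CPM in the PVN and 26.3 to 48.1 CPM in the CEA, mostly from Hdc and from Kit, which was at 28.0 to 43.6 and 24.1 to 47.1 CPM. Of the defining mast cell genes, Fcer1a was at 0 in all PVN libraries and reached 2 counts in the CEA, Cma1 reached 2 and 4 counts, and Ms4a2 reached 2 and 5. Cpa3 reached 6 counts in the PVN and 29 in the CEA, Tpsb2 3 and 29, and Tpsab1 3 and 20, each with a higher median in the CEA. In the PVN the Hdc level was 60.7, 21.8 and 29.6 CPM in NC and 27.1, 28.7 and 48.7 CPM in HT, overlapping. It was higher without overlap in EA (34.9, 28.9 and 35.4 CPM) than in SEA (26.7, 26.8 and 27.5 CPM), as 5.14% of genes were, with a log2 difference of 0.30 ± 0.09 SE (edgeR adjusted p = 0.917). The tuberomammillary sum, mostly Maob and holding Hdc, was also higher in EA without overlap (215 to 226 against 181 to 214 CPM). So was the choroid plexus sum, mostly Clic6, Folr1 and Kl (15.9 to 17.3 against 13.6 to 15.7). The vessel sum was lower (273 to 292 against 302 to 327). Hdc was called in no treatment comparison of the PVN.

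Behind the receptors, 35 measured rows of histamine handling and signalling genes were tested between regions, and Aoc1 and Hrh4 did not pass the filter. In NC 9 were called higher and 10 lower in the CEA (54.3%), in HT 5 and 12 (48.6%), in EA 7 and 13 (57.1%) and in SEA 7 and 12 (54.3%), beside the background of 21.3% to 30.5% given above. In all 4 comparisons 5 rows were higher (14.3%) and 8 were lower (22.9%), beside 6.38% and 5.65% of all genes tested. These shares are a description. The lists were chosen with earlier results of these data known, and all genes tested were not matched to them in expression level. On the Gq side of the H1 receptor, 3 of 8 genes were higher in the CEA throughout, the phospholipase Plcb1 (log2 0.85 to 1.505), the inositol trisphosphate receptor Itpr1 (1.91 to 2.97) and the protein kinase C gene Prkcb (1.41 to 1.99), the direction opposite to that of Hrh1. Gnaq, the Gq subunit gene, was called lower in 2 of the 4 (log2 -0.69 to 0.53 over the 4, lowest edgeR adjusted p = 0.0391). On the Gs side of the H2 receptor, the cyclase Adcy5 (2.23 to 2.68) and the olfactory Gs subunit Gnal (1.62 to 2.09) were higher throughout, and Adcy2 (-0.71 to -0.43), the protein kinase A subunit Prkaca (-0.67 to -0.57) and both rows of Gnas, the Gs subunit gene, were lower throughout. Adcy5, Gnal, Itpr1 and Prkcb are well-known genes of striatal neurons, whose markers moved with region as given above; their part in these differences was not tested. On the Gi and Go side of the H3 receptor, 1 of 11 genes was called the same way in all 4, Gnaz, a Gi family subunit, lower in the CEA (-1.004 to -0.71). Cacna1b, a calcium channel gene, was called lower in 3 of the 4 (-0.93 to -0.50, lowest edgeR adjusted p = 0.000944). Gnai2 was called lower in 2 and Cacna1a higher in 1. The potassium channel gene Kcnj6 was called lower in the CEA in 2 of the 4 comparisons (log2 -2.03 to -0.19 over the 4, lowest adjusted p = 0.0125 by edgeR). The potassium channel genes Kcnj3 and Kcnj9 were called in none, nor were Gnai1, Gnai3, Gnao1 and Gnb1. Under treatment, 0 of 35 rows in the PVN and 0 of 34 in the CEA were called by edgeR in any comparison. For HT against NC in the PVN, 5 of the 11 H3 signalling genes, 4 of the 8 Gq genes and 2 of the 10 Gs rows fell under 0.05 unadjusted, beside 1847 of 16727 genes. The list medians were 0.29, 0.45 and 0.28 on the log2 scale against -0.01 over all genes. PVN NC replicate 2 stood apart from the other NC libraries in these lists. Gnaq was at 31.8, 74.1 and 26.2 CPM in NC and 69.8 to 74.7 in HT, Prkca, a protein kinase C gene, at 19.9, 47.0 and 18.6 against 42.9 to 53.6, and Itpr1 at 73.5, 157 and 77.1 against 177 to 200. In the CEA 0, 1 and 0 did, with medians of -0.15, -0.16 and -0.07 against 0.02.

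The genes whose pattern was most like that of each receptor were ranked by Pearson's r of log2 CPM over the 24 libraries after centring each region, among 14625 genes, as a description. Nearest to Hrh3 were Ptk2b, a calcium-responsive tyrosine kinase (0.77), Ankrd13b (0.76), the kinase Mknk2 (0.76), neurochondrin Ncdn (0.76) and the pyruvate dehydrogenase kinase Pdk2 (0.71). In the order NC, HT, EA, SEA, Ptk2b was at 63.8 ± 8.96, 89.3 ± 1.57, 80.2 ± 9.90 and 74.2 ± 10.1 CPM in PVN libraries, and at 281 ± 36.8, 337 ± 24.7, 273 ± 47.3 and 278 ± 72.9 CPM in CEA libraries (SD, n = 3). Nearest to Hrh1 were Pdzd9, Tom1l1, Dus4l, the translation factor subunit Eif3a and LOC100910795, at 0.63 to 0.65. Nearest to Hrh2 were the transcription factor gene Tcf12 (0.87), the cadherin Fat1, AABR07040839.1, Nol4l and the transcription factor gene Atf7 (0.86 each). Between the receptors r was -0.60 for Hrh1 with Hrh3 (-0.70 in the PVN and -0.49 in the CEA), 0.04 for Hrh1 with Hrh2, and -0.21 for Hrh2 with Hrh3 (0.34 in the PVN and -0.72 in the CEA). The libraries of these correlations share depth and composition.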

How the data were processed

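Total RNA of PVN and CEA tissue was sequenced from strand-specific libraries. The authors deposited whole-number read counts per gene without normalization, made per the study's methods with HISAT2 and featureCounts (versions not given in the sources used here). The methods name mRatBN7.2, and the submitters' processing notes list GRCh38 and hg38. The largest gene end on chromosome 1 of the table, 282724300, lies past that chromosome's end in mRatBN7.2, so coordinates are printed as they stand. The treatment of reads with several matches is not given in the sources used here. A stray header line inside the table, which exchanges CEA EA replicates 2 and 3, was left out, and numbers follow the sample titles. No pair of libraries was identical.

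Groups came from the titles. Counts were tested in R 4.3.3 by edgeR 4.0.16 and its two-sided quasi-likelihood F test, on the libraries of the groups compared, after filterByExpr and TMM, with Benjamini-Hochberg adjustment over all genes tested and a threshold of 0.05. The study used DESeq2, and DESeq2 1.42.0 was an alternative, with DESeq2 size factors, no filter, the replicate number as a block, 1 fit of all libraries, and leaving out each library. The test was tested on simulated counts. Same-numbered libraries deviated together, with every correlation over 0.1, in CEA against PVN in NC (0.130 to 0.293) and in HT against NC in the CEA (0.180 to 0.294). There the replicate block changed no call of a receptor. CPM used TMM factors over 24 libraries, and log2 CPM for likeness a prior count of 2. Intervals are unadjusted.

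The receptors, gene lists and rule for named genes were chosen with earlier results of these data known. Named genes are the 3 receptors, Hrh4, Hdc and Hnmt, listed genes called the same way in all 4 regional comparisons, the 5 genes nearest to each receptor, and markers whose values stand beside a result; others were named after their values were seen. Of the symbols listed, Tac2, Pecam1, Abcb1a and Foxj1 matched no row. Promoters are from RefSeq (GRCr8), matched by symbol for Hrh1 and Hrh3.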

Additional observations from a re-analysis of the deposited data

How the results depend on the processing

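The regional difference of Hrh3 held its direction and call under all 44 alternatives, and with Hrh1 it was the same in 76 of 88, the other 12 all being Hrh1 past the threshold no longer. In HT, Hrh1 was -0.74 with no filter on low counts (edgeR adjusted p = 0.0647) and -0.74 with the replicate block (adjusted p = 0.0943), where the numbers were not shown to pair the libraries. With 1 library left out, Hrh1 ran from -1.01 to -0.77 in NC, -0.80 to -0.67 in HT, -0.90 to -0.75 in EA and -0.87 to -0.66 in SEA. The treatment values of Hrh3 chose the family, and their ranges are a description. With 1 library left out, HT against NC was 0.66 to 0.79 in the PVN, whereas the CEA gave 0.49 to 0.67. The replicate block changed no other call of a receptor. Differences of Hrh1 and Hrh2 near 0 turned sign when 1 library was left out. Between regions Hrh2 was -0.16 to 0.63 in NC, -0.21 to 0.29 in EA and -0.028 to 0.24 in SEA. In EA against HT in the PVN Hrh2 was -0.34 to 0.15. In EA against SEA, Hrh1 was -0.057 to 0.15 in the PVN and, in the CEA, -0.083 to 0.069, and Hrh2 -0.16 to 0.34 and -0.12 to 0.16. For Hrh2 in the CEA this difference was -0.015 with the replicate block and -0.013 in 1 fit of all libraries. The interactions of Hrh1 were -0.015 to 0.22 for HT, -0.14 to 0.0030 for EA and -0.14 to 0.073 for SEA. Other values kept their sign with 1 library left out but moved. Hrh1 was 0.034 to 0.24 in SEA against HT in the PVN and 0.035 to 0.20 in EA against HT in the CEA. Hrh2 was -0.32 to -0.010 in SEA against HT in the PVN. The interactions of Hrh2 were -1.37 to -0.53 for HT, 0.39 to 1.21 for EA and 0.47 to 1.30 for SEA. None of these was called under any alternative, and the cause was not tested.

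The counts of genes called moved more. By DESeq2, HT against NC, EA against HT, SEA against HT and EA against SEA gave 28, 91, 21 and 24 PVN genes, against 24, 5, 3 and 5 for the CEA, and the interactions 1, 49 and 1. Without a filter the first 3 PVN counts were 4, 69 and 1, and HT against NC in the CEA 1. The replicate block gave 5 for EA against HT in the PVN. With all libraries in 1 fit, HT against NC in the PVN gave 1, EA against HT 0, and the regions in HT 6098. With 1 library left out, the regions gave 2450 to 6152 genes in NC, 1388 to 4973 in HT, 2898 to 6113 in EA and 2748 to 5677 in SEA. HT against NC in the PVN gave 0 to 3418, the highest without PVN NC replicate 2, EA against HT 0 to 28, SEA against HT 0 to 5 and EA against SEA 0 to 13. In the CEA, HT against NC and EA against SEA gave 0 to 1. The HT interaction gave 0 to 693, the highest without PVN NC replicate 2, and the EA interaction 0 to 19. Hrh2 rests on 18 to 96 counts per library.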
